A study of Mus musculus with 43 samples.

Results

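The genes described here are 10 genes of Leydig cell steroidogenesis and hormone output, among 55401 gene identifiers in the 10 RNA tables. They are Insl3 and Ren1 (hormone genes), Star (cholesterol import), Cyp11a1, Hsd3b1, Hsd3b6, Cyp17a1 and Hsd17b3 (enzymes), Lhcgr (receptor) and Nr5a1 (transcription factor). They were chosen by symbol, and several of them were chosen from their values in these data, because they fell strongly in the whole testis of the knockout. Their whole-testis values are therefore a description, without a test, and each of the 10 symbols matched 1 identifier. The study asked what the arginine methyltransferase Prmt1 does in male germ cells of C57BL/6J mice. Whole-testis RNA was sequenced at postnatal day 7 (P7) from 3 wild-type (WT) and 3 Prmt1-dKO libraries. Spermatogonia sorted at P7 were sequenced by Smart-seq2, a full-length method for small amounts of RNA, in 2 WT and 2 Prmt1-dKO libraries. CUT&Tag, which maps a histone mark with an antibody-tethered transposase, gave 33 peak lists for 7 marks at P7 and P14.

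Prmt1-dKO mice carried Prmt1 lox/lox alleles, with loxP sites around exons 4 and 5, and Ddx4-CreERT2, a tamoxifen-inducible Cre under the germ cell promoter Ddx4. Tamoxifen was given on 3 days before collection at P7. The labels give no treatment for WT mice, the methods describe injection of floxed Cre mice, and a scheme shows both genotypes, so tamoxifen, Cre and the Prmt1 deletion may not be told apart in the comparisons below. The sort used the EGFP carried by the Cre allele, from tubules washed free of interstitial cells, and the methods name Prmt1 +/lox mice with the Cre allele as its controls while the labels say WT. CUT&Tag was run on cells of collagenase-treated tubules from which interstitial cells had been removed, from WT mice except for 2 lists of H4R3me2s in Prmt1-dKO at P7. The titles of the P14 samples say spermatogonia while their cell type label says spermatocyte, and the peak names in the 3 H4R3me2s lists of P14 start with SD17 while those of the other P14 lists start with P14, so the age of these 3 lists is uncertain. The labels call the bulk samples spermatogonia, but the methods describe whole testis, and the bulk libraries held RNA of Sertoli, peritubular, interstitial and Leydig cell markers. Neither the Cre driver nor the sort was directed at Leydig cells.

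Leydig cells lie between the tubules and are the testis's source of androgens. Luteinizing hormone binds its receptor, encoded by Lhcgr, and raises cAMP, after which StAR moves cholesterol into mitochondria. There CYP11A1 cleaves its side chain to give pregnenolone, 3β-hydroxysteroid dehydrogenase (Hsd3b1, Hsd3b6) makes progesterone, CYP17A1 makes androstenedione and HSD17B3 makes testosterone. In the fetal mouse testis Leydig cells lack HSD17B3 and Sertoli cells carry out that last step. INSL3 is the peptide hormone of Leydig cells that guides testis descent, renin (Ren1) is the protease that starts the angiotensin cascade, and NR5A1 (SF-1) is the nuclear receptor that binds the promoters of most steroidogenic genes and is found in Leydig and Sertoli cells alike.

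The promoters of 7 of the 10 genes were matched by symbol in a table of RefSeq promoters of GRCm38.p6, as 8 windows of 300 bases; Star, Cyp17a1 and Nr5a1 were not matched. The stretch from 40 to 11 bases before the RefSeq start, where a TATA box would lie, is shown for every matched window so that genes that fell and genes that did not can be set side by side. By GENCODE vM21 these 30 bases lie wholly in annotated exons for Ren1 and the downstream start of Cyp11a1, and 28 of them do for Insl3 and 19 for Hsd17b3, where that annotation has an exon upstream of the RefSeq start. Capitals mark a match to TATAAA or to the NR5A1 binding motif CAAGGNCA, searched on both strands.
Insl3, chr8:71689212-71689241, + strand: gcgaggcagttataaggagcatccctgccc
Ren1, chr1:133350634-133350663, + strand: tacatggtgtgTATAAAagaaggctcaggg
Cyp11a1, upstream start, chr9:57997984-57998013, + strand: ccagcaacccctacatccaatgagggagca
Cyp11a1, downstream start, chr9:58014912-58014941, + strand: gaggaaggggggaggtcaccgctccatcag
Hsd3b1, chr3:98859805-98859834, - strand: tcctccaagctatttaaacagaccaagatc
Hsd3b6, chr3:98814454-98814483, - strand: tagcagccaagataaaaagtcctgtccagc
Hsd17b3, chr13:64089212-64089241, - strand: agagcctcctcagaggagatctggcgggca
Lhcgr, chr17:88792025-88792054, - strand: gcgggcagagggtacgggcgggccccccgg

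Of the 8 windows, 1 held TATAAA, that of Ren1, with its first base at position -29 relative to the RefSeq start, against 13.6% of all 32851 windows in the table. CAAGGNCA was in 0 of the 8 windows and in 6.71% of all windows, which says only that these letters were not in these 300 bases. The upstream sequence of Insl3, the gene with the highest level in WT, and that of Hsd3b1, the next in TPM and at 82.3% of its WT CPM in dKO, are shown whole up to the first annotated exon base. Neither held a match to either motif.
Insl3, chr8:71689002-71689213, + strand: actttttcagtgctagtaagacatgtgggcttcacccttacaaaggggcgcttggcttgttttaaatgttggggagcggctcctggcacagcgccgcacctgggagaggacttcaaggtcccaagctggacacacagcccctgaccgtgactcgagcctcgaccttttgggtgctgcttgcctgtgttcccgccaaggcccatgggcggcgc
Hsd3b1, chr3:98859795-98860044, - strand: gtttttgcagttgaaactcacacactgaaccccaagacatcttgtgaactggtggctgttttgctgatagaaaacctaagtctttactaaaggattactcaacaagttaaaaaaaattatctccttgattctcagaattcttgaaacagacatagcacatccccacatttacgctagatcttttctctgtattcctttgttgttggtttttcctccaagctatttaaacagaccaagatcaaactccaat

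Bulk libraries held 12396345 to 16598249 gene counts and Smart-seq2 libraries 15610392 to 18547103. Levels are given as CPM, each library's counts scaled to a common total after TMM scaling within an assay, and levels of the 10 genes are set against each other only as TPM, the deposited unit that also divides by transcript length, while the rule for naming genes of a list ranks them by CPM. Prmt1 itself, counted over the whole gene and not only over the deleted exons, was 218.9 to 246.8 CPM in bulk WT and 145.7 to 198.8 CPM in bulk dKO, with a log2 fold change of -0.49 (SE 0.13, adjusted p = 0.0334, edgeR). In sorted cells it was 216.4 and 149.2 CPM in WT and 112.4 and 86.5 CPM in dKO, with a log2 fold change of -0.88 (SE 0.26, adjusted p = 0.133). The dKO libraries lay below WT in both assays, without overlap.

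In WT whole testis the order of the 10 genes by mean TPM began with Insl3 at 298.4 ± 35.0 (SD, n = 3). Hsd3b1 followed at 179.1 ± 3.88, Nr5a1 at 170.4 ± 7.33, Hsd17b3 at 126.5 ± 14.6, Cyp11a1 at 84.1 ± 7.94 and Cyp17a1 at 76.4 ± 11.9. Ren1 was at 35.6 ± 3.26, Star at 22.2 ± 6.87, Lhcgr at 6.66 ± 2.1 and Hsd3b6 at 0.25 ± 0.0954. Within this order only Hsd3b1 and Nr5a1, and Cyp11a1 and Cyp17a1, overlapped as neighbours over the 3 libraries. In dKO the order began with Hsd3b1 at 133.3 ± 9.86, Nr5a1 at 127.3 ± 9.41 and Hsd17b3 at 122.3 ± 8.25 TPM, whose ranges overlapped from one to the next. Cyp11a1 was next at 15.0 ± 1.62 and then Insl3 at 10.3 ± 0.471, followed by Lhcgr at 6.30 ± 2.06, Star at 4.50 ± 1.29, Cyp17a1 at 2.13 ± 0.759, Hsd3b6 at 0.803 ± 0.922 and Ren1 at 0.640 ± 0.407. Insl3 thus went from rank 1 to rank 5, Ren1 from rank 7 to rank 10 and Cyp17a1 from rank 6 to rank 8, while Hsd3b1, Nr5a1 and Hsd17b3, at ranks 2 to 4 in WT, took the top 3 ranks in dKO. Among the lower dKO ranks, Lhcgr and Star, Cyp17a1 and Hsd3b6, and Hsd3b6 and Ren1 overlapped, so their order is not resolved.

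The 2 hormone genes were among those furthest below WT in the whole testis of dKO. Insl3 (chr8:71689214-71690575 in GRCm38, + strand) was at 64.4, 63.5 and 82.4 CPM in the WT libraries and at 2.34, 3.11 and 2.85 CPM in the dKO libraries. All 3 dKO libraries lay far below all WT libraries, at 3.94% of the WT mean, and the log2 fold change was -4.66 (SE 0.18). Ren1 (chr1:133350510-133360325, + strand) was at 33.5, 28.4 and 30.2 CPM in WT and at 0.365, 1.19 and 0.381 CPM in dKO. Its dKO mean was 2.11% of the WT mean, with a log2 fold change of -5.60 (SE 0.31), and the groups did not overlap. Without dKO replicate 2, the highest of its group, the log2 fold change of Ren1 was -6.33. In this comparison 3 of the 16554 genes tested had a lower log2 fold change than Ren1 and 6 had a lower one than Insl3. In whole-tissue RNA, fewer cells of a type and less RNA per cell cannot be told apart, which holds for every bulk value here.

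Star (chr8:25806555-25815982, + strand), whose product carries cholesterol to the first enzyme, was at 37.1, 40.6 and 60.7 CPM in WT and at 13.4, 9.24 and 13.8 CPM in dKO. The groups were apart, with dKO at 26.4% of WT and a log2 fold change of -1.92 (SE 0.22), and WT replicate 3 was the highest of its group. Cyp11a1 (chr9:58006411-58027023, + strand), the side-chain cleavage enzyme, was at 101.5, 90.9 and 117.4 CPM in WT and at 20.4, 23.9 and 17.0 CPM in dKO. That was 19.8% of WT, with a log2 fold change of -2.34 (SE 0.16) and no overlap. Cyp17a1 (chr19:46667165-46673172, - strand), the enzyme that makes androgens from progestins, was at 86.6, 63.2 and 77.7 CPM in WT and at 2.63, 3.35 and 1.40 CPM in dKO. At 3.24% of WT and a log2 fold change of -4.97 (SE 0.26) it was, with Ren1 and Insl3, one of 3 genes whose dKO level lay under 5% of WT. WT levels of Cyp11a1 and Cyp17a1 overlapped as TPM, whereas in dKO the lowest Cyp11a1 library was at 13.3 TPM and the highest Cyp17a1 library at 2.66 TPM.

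Of the remaining enzymes, Hsd3b1 and Hsd17b3 were at 82.3% and 88.6% of WT and Hsd3b6 was near 0 in both groups. Hsd3b1 (chr3:98852194-98859794, - strand), the dehydrogenase that acts between CYP11A1 and CYP17A1, was at 171.0, 168.3 and 186.0 CPM in WT and at 144.4, 154.8 and 133.1 CPM in dKO. The groups did not overlap, but dKO was at 82.3% of WT and the log2 fold change was -0.28 (SE 0.10). Hsd3b6 (chr3:98805504-98814443, - strand), its neighbour and close paralog, was listed at 0.134 to 0.314 CPM in WT and at 0 to 1.04 CPM in dKO, and was too low for the fit. Reads of this pair could be shared out between them by the authors' counting, so the split between them is uncertain. Hsd17b3 (chr13:64058266-64089230, - strand), which makes testosterone, was at 79.9, 61.2 and 68.2 CPM in WT and at 53.7, 58.5 and 73.1 CPM in dKO. These groups overlapped, dKO replicate 3 being above 2 of the WT libraries, and the log2 fold change was -0.17 (SE 0.15).

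The receptor and the transcription factor did not move with the strongly lowered genes. Lhcgr (chr17:88716481-88791990, - strand) was at 16.7, 11.7 and 16.9 CPM in WT and at 26.3, 21.7 and 25.1 CPM in dKO, so that counts were higher in all dKO libraries, with a log2 fold change of 0.69 (SE 0.17). As TPM the same libraries gave 8.98, 6.08 and 4.91 in WT and 6.27, 4.26 and 8.37 in dKO, which overlapped. The effective length that RSEM used for Lhcgr, a mean over its transcripts weighted by their estimated shares, was 2896.3, 3036.8 and 5120.6 bases in WT and 6283.6, 6309.0 and 4250.0 bases in dKO. The direction for Lhcgr thus held for counts and not for the length-scaled unit. Nr5a1 (chr2:38692656-38714542, - strand) was at 306.7, 280.3 and 301.8 CPM in WT and at 245.6, 268.6 and 229.7 CPM in dKO, without overlap, at 83.7% of WT and with a log2 fold change of -0.26 (SE 0.10).

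**Figure D1:**
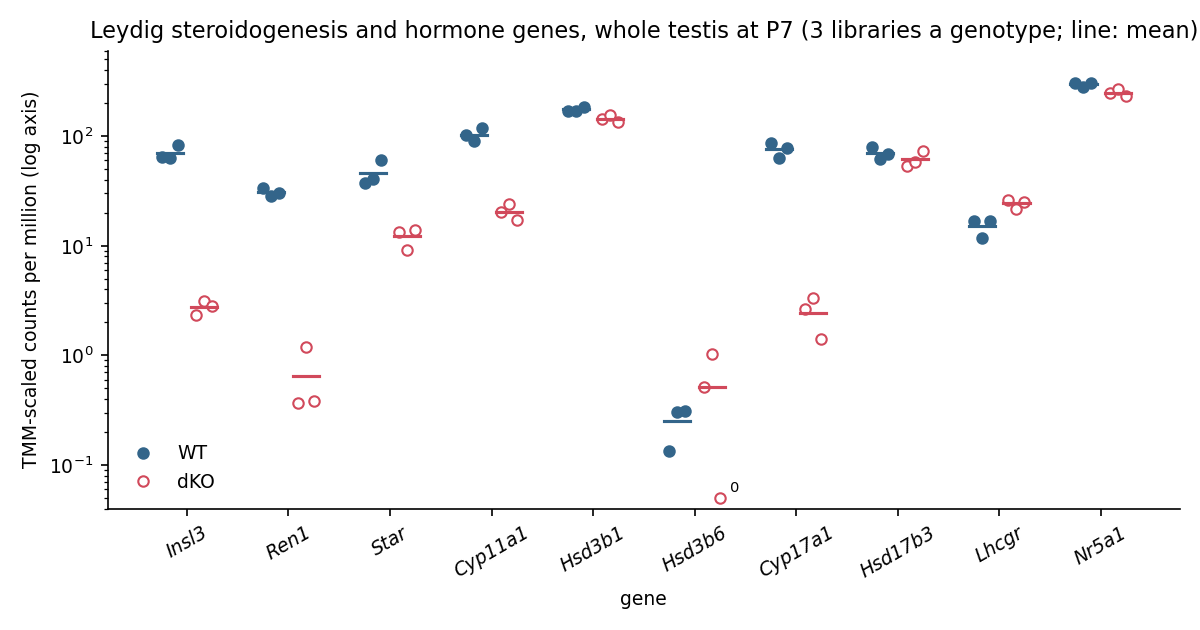
TMM-scaled CPM on a log axis for the 10 genes in the 3 WT (filled) and 3 dKO (open) whole-testis libraries, with the group mean as a line and a library at 0 set on the lower edge. Insl3, Ren1 and Cyp17a1 stand at under 5% of WT in dKO, Star and Cyp11a1 at 26.4% and 19.8%, and Hsd3b1, Hsd17b3 and Nr5a1 at 82.3% to 88.6%, while Lhcgr is higher and Hsd3b6 is near 0 in both groups.

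Of the 10 genes, 9 passed the filter on low counts, and 5 of these, Insl3, Ren1, Star, Cyp11a1 and Cyp17a1, met the calling rule for lower genes, an adjusted p under 0.05 and a 2-fold change. Over all 16554 genes tested 1.78% were called lower and 5.32% higher, and no Leydig gene of the 10 was called higher. The 3 dKO libraries all lay below WT for 7 of the 10 genes, against 19.9% of all genes tested, and all above WT for 1, Lhcgr, against 20.9%. Since this contrast chose the genes, nothing is read from these counts.

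The wider pathway was described with 6 lists of 146 further genes, of which 135 were tested in whole testis. These lists were drawn up with earlier results of these data known, and are no independent support. In them 18 genes (13.3%) were called lower and 2 (1.48%) higher, and the median log2 fold change was -0.21 against 0.02 over all genes tested.

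Genes that supply cholesterol, the substrate of steroid synthesis, held 9 of these 18 lower calls. All 32 were tested, 9 were called lower and none higher, 27 had a log2 fold change below 0, and the median was -0.63. Cyp51, the lanosterol demethylase, was at 83.0, 81.6 and 78.6 CPM in WT and at 25.7, 34.8 and 24.5 CPM in dKO (log2 fold change -1.52, adjusted p = 0.000845). Every dKO library of Cyp51 lay below every WT library. Sqle, squalene epoxidase, fell by 1.49 on the log2 scale (adjusted p = 0.00064) and Idi1, the isopentenyl diphosphate isomerase, by 1.38 (adjusted p = 0.000362). Also called lower were Msmo1 (log2 fold change -1.27), Mvk (-1.25) and Hmgcs1 (-1.18), which encode enzymes of the same route. The summed level of the list was 3024.7 to 3209.1 CPM in WT and 1914.1 to 2095.1 CPM in dKO. In sorted cells the same list summed to 1944.8 to 2434.9 CPM in WT and 2155.6 to 2296.8 CPM in dKO.

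Among the other steroid enzymes and electron donors, 18 of 26 were tested, with a median of -0.23; 3 were called lower and 2 higher. Hsd11b2, which inactivates glucocorticoids, was at 12.6, 10.4 and 10.2 CPM in WT and at 4.38, 5.65 and 4.38 CPM in dKO (log2 fold change -1.20, adjusted p = 0.0038), and Hsd17b1, which makes estradiol from estrone, fell by 1.04 (adjusted p = 0.00309). Akr1c14, a 3α-hydroxysteroid dehydrogenase, rose by 1.02 (SE 0.22, adjusted p = 0.0141). The other 2 called genes were under the 50 counts required for naming and are named after their values were seen. Cyp21a1, the steroid 21-hydroxylase best known from the adrenal, held 130.0 counts over the WT libraries and 1 count over the dKO libraries (adjusted p = 0.00179). Hsd11b1, which activates glucocorticoids, was at 0.674 to 1.13 CPM in WT and at 2.07 to 3.11 CPM in dKO (adjusted p = 0.0195). Neither higher call was made without WT replicate 1 or without WT replicate 2.

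Of the hormone receptors and ligands around Leydig cells, 26 of 28 were tested, with a median of -0.15, 4 called lower and none higher. Amh, the Sertoli cell hormone that regresses the Müllerian duct, was at 618.4, 506.0 and 682.5 CPM in WT and at 162.5, 232.6 and 123.6 CPM in dKO (log2 fold change -1.80, SE 0.22, adjusted p = 0.00184). Ace, which makes angiotensin II downstream of renin, was at 103.0 to 105.8 CPM in WT and at 43.1 to 44.7 CPM in dKO (log2 fold change -1.26, adjusted p = 0.000362). Inhba, the activin βA subunit, fell by 1.32 (SE 0.29, adjusted p = 0.0153). Crhr1, the receptor of corticotropin-releasing hormone, held 66 counts over the WT libraries and 4 over the dKO libraries (adjusted p = 0.00421), also under the naming minimum.

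Genes of LH signalling through cAMP were all tested (20), with a median of -0.21 and 2 called lower, the adenylyl cyclase Adcy9 (log2 fold change -1.09, adjusted p = 0.00922) and the protein kinase A subunit Prkar2b (log2 fold change -1.07, adjusted p = 0.00309). No steroidogenic transcription factor was called among the 22 of 24 tested, whose median was -0.16. By edgeR, the 2 with the highest CPM, Gata4 and Wt1, had log2 fold changes of -0.20 (adjusted p = 0.353) and -0.15 (adjusted p = 0.517). None of the 17 tested genes of 18 other Leydig cell markers was called either, with a median of -0.13. By edgeR, at an adjusted p under 0.05 but short of 2-fold, Fads1 (log2 fold change -0.95, adjusted p = 0.000958), Mgarp (-0.62, adjusted p = 0.00466), Fabp3 (-0.75, adjusted p = 0.0109) and Hao2 (-0.95, adjusted p = 0.0394) were lower in every dKO library and Ephx1 (0.80, adjusted p = 0.00732) was higher. The 2 of the list with the highest CPM, the glutathione transferases Gstm1 and Gstm2, had log2 fold changes of -0.13 (adjusted p = 0.465) and -0.15 (adjusted p = 0.443), and as close paralogs may share reads. Summed over that list, WT was at 4031.3 to 4316.1 CPM and dKO at 3507.1 to 3888.2 CPM. Many of these markers are also expressed by other cells of the testis.

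**Figure D2:**
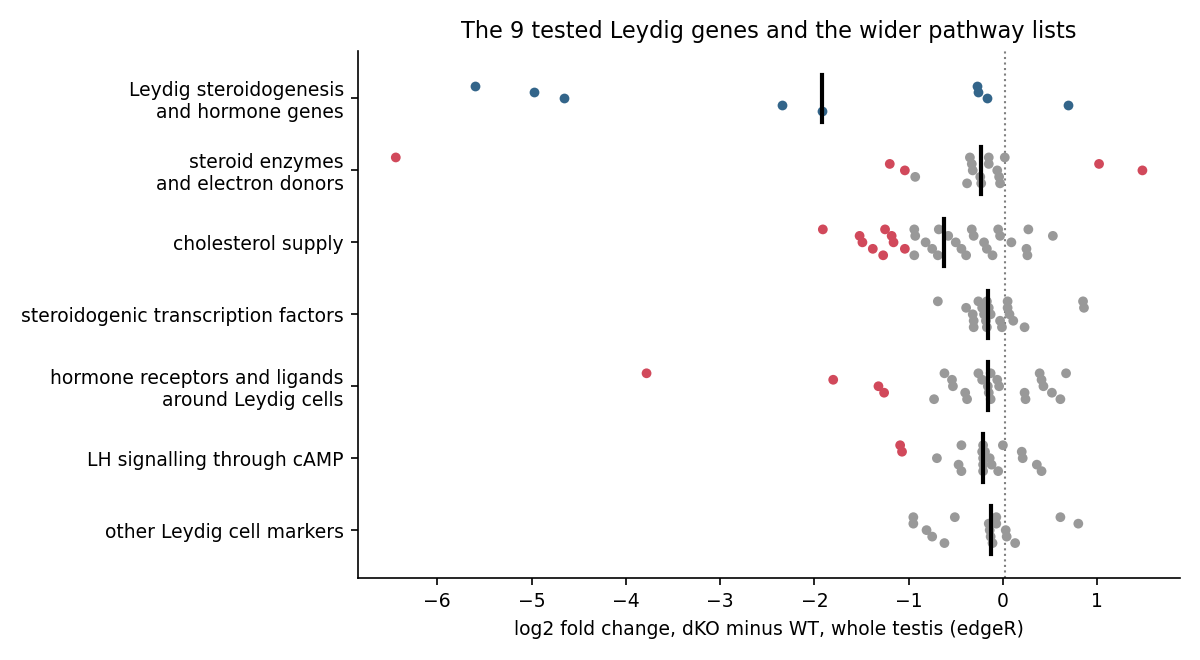
Log2 fold changes (dKO minus WT, whole testis, edgeR) of the 9 tested Leydig genes (blue, no call shown) and of each wider pathway list, with called genes in red, other genes in grey, the list median as a black line and the median of all genes, 0.02, as a dotted line. The 9 red genes of cholesterol supply all lie below 0, and the point furthest left among the steroid enzymes is Cyp21a1, whose fitted value rests on 1 count in dKO and depends on the prior count.

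Markers of other testis cells moved as well. In bulk all 9 Sertoli markers had a log2 fold change below 0, with a median of -0.53 and Amh called, and their summed level was 5288.9 to 6040.8 CPM in WT and 4141.8 to 4748.3 CPM in dKO. All 6 peritubular myoid markers were below 0, with a median of -0.87 and Acta2, Myh11 and Cnn1 called lower, and summed to 1334.3 to 1501.8 CPM in WT and 533.1 to 1108.8 CPM in dKO. The 5 interstitial mesenchyme markers had a median of 0.71, with none past the 2-fold rule. Of these, Tcf21 (log2 fold change 0.86, adjusted p = 0.00181), Dcn (0.71, adjusted p = 0.00961) and Lum (0.71, adjusted p = 0.00671) were higher in every dKO library by edgeR. The other 2, Pdgfra and the collagen gene Col1a1, were below 0, and the summed level was 3840.5 to 4203.6 CPM in WT and 3644.7 to 4043.7 CPM in dKO. The 9 germ cell markers had a median of 0.04 and summed to 1273.6 to 1483.6 CPM in WT and 1260.5 to 1327.5 CPM in dKO. Among them Ddx4, whose promoter drives the Cre, was lower in every dKO library (log2 fold change -0.67, adjusted p = 0.0184, edgeR). The 7 macrophage markers had a median of 0.27 and summed to 106.6 to 127.6 CPM in WT and 126.2 to 164.0 CPM in dKO, with Lyz2 higher (0.83, adjusted p = 0.003, edgeR) and Mrc1 lower (-0.54, adjusted p = 0.018), short of 2-fold. The 5 endothelial markers had a median of 0.31 and overlapped in their sum, at 191.5 to 204.5 CPM in WT and 181.0 to 218.4 CPM in dKO, with Pecam1 (0.95, adjusted p = 0.00199, edgeR) and Vwf (0.51, adjusted p = 0.0291) higher and Kdr lower (-0.45, adjusted p = 0.0297). The 5 erythroid markers, with a median of 0.60, summed to 714.4 to 1046.0 CPM in WT and 691.1 to 2392.3 CPM in dKO, where replicate 2 stood apart, as for Hbb-bs at 303.0, 847.5 and 298.4 CPM. The 6 Leydig markers, which are all among the 10 genes, summed to 438.2 to 541.1 CPM in WT and 193.3 to 216.1 CPM in dKO, and none was at 0. The part of cell composition in the whole-testis values was not tested.

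The non-member genes with the lowest log2 fold changes among genes called lower in bulk, with at least 50 counts on average in WT, were Omp, Aldh3a1, Crisp1, Ism1, Kcnk3, Tubb3, Abcb5, Aff2, Miox and Angptl7. Their log2 fold changes ran from -4.21 for Omp, the olfactory marker protein, to -2.26 for Angptl7. Tubb3, a β-tubulin, was at 107.7, 102.6 and 120.4 CPM in WT and 19.3, 24.5 and 16.7 CPM in dKO (log2 fold change -2.45, SE 0.16, adjusted p = 0.000119). Kcnk3, a potassium channel, was at 54.6 to 59.4 CPM in WT and at 7.17 to 12.4 CPM in dKO (log2 fold change -2.54, adjusted p = 0.000272). By Euclidean distance over the 6 bulk libraries, the genes nearest to the median pattern of the 9 tested Leydig genes, on the log2 CPM scale centred on WT, were Cadps (0.381), Lars2 (0.459), Stra6 (0.493), Lipg (0.526) and Spp1 (0.565). That median pattern lay at -1.74, -2.10 and -1.69 in the dKO libraries. Stra6, a retinol uptake receptor, was at 109.1 to 111.2 CPM in WT and at 25.4 to 31.8 CPM in dKO, and Spp1, osteopontin, at 70.2 to 76.8 CPM in WT and at 22.8 to 25.4 CPM in dKO.

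In sorted spermatogonia, which were not used to choose the genes, 5 of the 10 genes, Ren1, Cyp11a1, Cyp17a1, Hsd3b6 and Lhcgr, had 0 counts in all 4 libraries. A count of 0 in these libraries allows a level of up to 0.162 to 0.192 CPM before TMM scaling. Insl3 also had 0 counts in both WT libraries. In WT whole testis these 6 genes ranged from 0.25 TPM for Hsd3b6 to 298.4 TPM for Insl3. The tables of the 2 assays were normalized separately, so their levels are given side by side without a test.

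The genes that were detected in sorted cells were Nr5a1, Star, Hsd17b3, Hsd3b1 and Insl3. Nr5a1 was at 12.6 and 24.1 CPM in WT and at 16.2 and 14.8 CPM in dKO, so that both dKO libraries lay between the WT libraries (log2 fold change -0.25, SE 0.63, adjusted p = 0.886, edgeR). Star was at 8.17 and 0.366 CPM in WT and at 8.37 and 7.94 CPM in dKO (log2 fold change 0.93, SE 1.57, adjusted p = 0.813). WT replicate 2 stood far below the other 3 libraries, and the groups overlapped. Without WT replicate 1 the log2 fold change of Star was 4.47 and without WT replicate 2 it was 0.01. As TPM Star was at 6.97 and 0.12 in WT and at 2.91 and 3.02 in dKO, so that its mean was higher in WT than in dKO, the reverse of CPM, with effective lengths of 1453.5 and 3847.4 bases in WT and 2889.4 and 2995.6 bases in dKO. Hsd17b3 was at 0.673 and 0 CPM in WT and at 2.25 and 1.99 CPM in dKO, which did not overlap (log2 fold change 2.63, SE 1.88, adjusted p = 0.51). Its value was 8.15 without WT replicate 1, where the remaining WT library was at 0, and 1.66 without WT replicate 2.

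Hsd3b1 had 0 counts in both WT libraries and 1.61 and 4.77 CPM in the dKO libraries, at least 36.1-fold higher against a floor of 3 counts over the WT group (adjusted p = 0.0799, edgeR). Insl3, too low for the fit, was at 0.322 and 0.530 CPM in the dKO libraries, at least 4.68-fold higher against the same floor. Both genes were thus present in dKO and at 0 in WT. In whole testis both genotypes held counts of both genes, with dKO at 82.3% of WT for Hsd3b1 and at 3.94% for Insl3. The dKO libraries of sorted cells also held counts at more genes, 21404 and 20194 against 17106 and 15587 in WT, at lower total counts, and the part of this difference in the values was not tested. By edgeR 0 of the 4 genes of the 10 tested, and 0 of all 16443 genes tested (0%), were called. At an unadjusted p under 0.05 and a 2-fold change 678 genes were lower and 2267 higher, and 1 of the 4 Leydig genes, Hsd3b1, had an unadjusted p under 0.05. DESeq2 called 3498 genes and, of the 10, Hsd3b1. The calls turned on the WT libraries: without WT replicate 1 edgeR called 7436 genes, with Star, Hsd17b3 and Hsd3b1 among them, and without WT replicate 2 it called 6118, with Hsd3b1 as the one gene of the 10, each fit taking the lone WT library to vary like the dKO libraries.

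Marker lists of most other cell types also differed between the same libraries. The 7 macrophage markers summed to 0 CPM in both WT libraries and to 52.7 and 55.4 CPM in the dKO libraries, with 6 of 7 detected and Adgre1 at 0. The 5 endothelial markers summed to 0 CPM in WT and to 3.15 and 3.64 CPM in dKO, with Vwf at 0. The 6 peritubular myoid markers overlapped, at 9.62 to 32.9 CPM in WT and 21.2 to 24.8 CPM in dKO (median log2 fold change 0.03), while the 5 erythroid markers went from 8.33 to 9.99 CPM in WT to 31.0 to 77.1 CPM in dKO. The 5 interstitial mesenchyme markers went from 7.59 to 20.6 CPM in WT to 79.2 to 103.2 CPM in dKO, the 9 Sertoli markers from 285.4 to 312.0 CPM to 550.8 to 683.6 CPM, and the 9 germ cell markers from 1585.5 to 1600.0 CPM to 2073.2 to 2213.3 CPM. Of the 6 Leydig markers, all among the 10 genes, Cyp17a1, Cyp11a1 and Lhcgr were at 0 in all 4 libraries, and the list summed to 0.366 to 8.17 CPM in WT and 10.3 to 13.2 CPM in dKO. The other Leydig cell markers summed to 310.9 to 318.2 CPM in WT and to 691.7 to 796.8 CPM in dKO. Of the 13 tested, 11 had a log2 fold change above 0 and 2 below, Cyp2s1 (-0.53) and Fads1 (-0.37). Fads1 was lower in both dKO libraries, and Vcam1 and Hao2 were at 0 throughout. Thbs2, Ephx1 and Gstm1 were higher in both dKO libraries at an adjusted p of 0.0774 (edgeR), and Gstm2 at 0.0779, short of the calling rule. The value 0.0774 is the lowest of the whole fit and not particular to these genes. The part of these cells in the Hsd3b1, Hsd17b3 and Insl3 values was not tested.

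**Figure D3:**
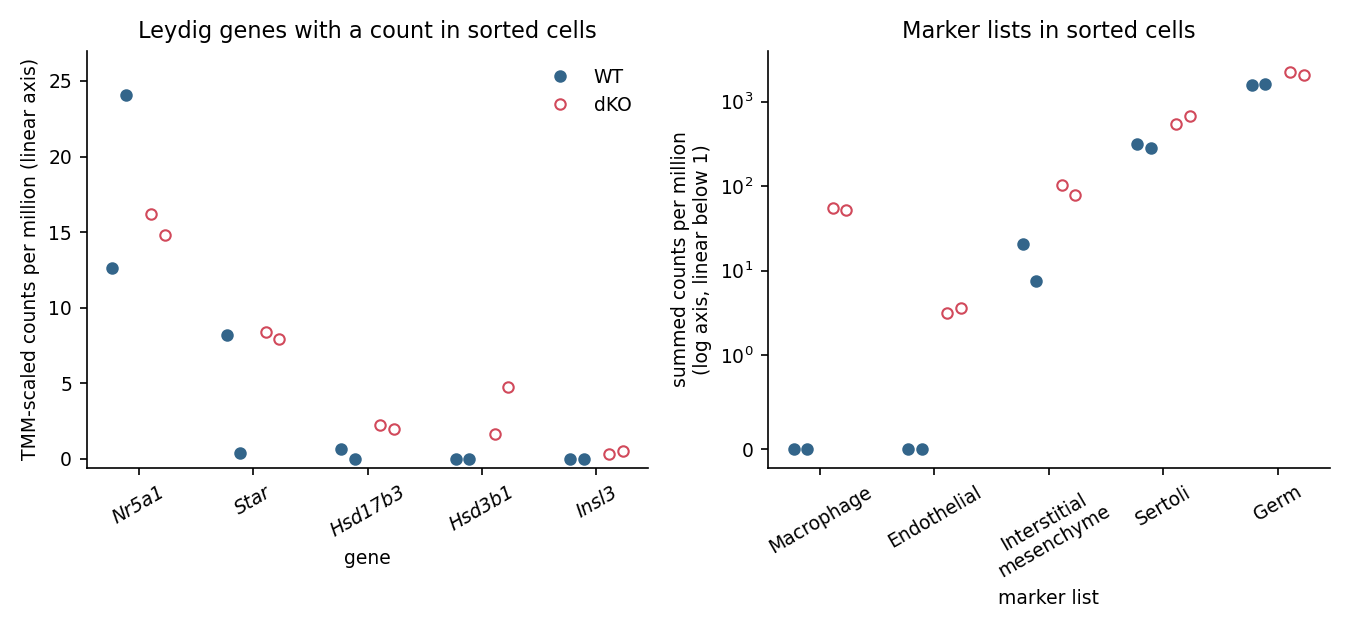
Left, CPM on a linear axis of the 5 genes with a count in the 2 WT (filled) and 2 dKO (open) sorted-cell libraries; right, summed CPM of marker lists in the same libraries, on an axis that is logarithmic above 1 and linear below. Hsd3b1 and Insl3 are at 0 in WT and above 0 in dKO, as are the macrophage and endothelial lists, while the WT libraries of Star and Nr5a1 lie as far apart as the groups or further.

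CUT&Tag peak lists were searched near the 10 genes. A gene is counted as marked where at least 2 replicate lists held a summit within 3000 bp of one of its transcript starts. H3K4me3, the mark of active promoters, marked 2 of the 10 genes at P7, Hsd17b3 and Nr5a1, against 60.7% of 21951 protein-coding genes, and 1 at P14, Nr5a1, against 63.1%. H3K27ac, a mark of active promoters and enhancers, marked 2 at P7, Cyp11a1 and Nr5a1, against 31.0%, and 4 at P14, Star, Cyp11a1, Hsd17b3 and Lhcgr, against 48.9%. By this rule the summits of a gene need not lie at the same start. For H3K27ac at Lhcgr at P14 they were at chr17:88791723 and chr17:88773595. With peaks of q at most 0.01 the H3K27ac counts were 0 at P7 and 2 at P14, against 2293 and 8753 of the 21951 coding genes. Replicate 2 alone, that is without replicate 1, gave H3K27ac summits at 5 genes at P7 and 7 at P14, and H3K4me3 summits at 3 genes at P14. A summit in that 1 list then sufficed. Of the 21951 coding genes, 8974, 12129 and 14422 had one in these 3 cases. Insl3, Ren1 and Hsd3b6 had no H3K4me3 or H3K27ac summit in any of the 8 lists. Interstitial cells had been removed from the CUT&Tag preparations, so a missing peak says nothing of Leydig cells.

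Of the peaks near the 10 genes, those of H3K4me3 at Nr5a1 had the highest -log10 q. At P7 the peaks chr2:38713159-38714589 and chr2:38713100-38714581 (mm10, that is GRCm38) had enrichments of 3.91 and 4.06 over the local background, with -log10 q of 24.0 and 20.3. Their summits lay 226 and 495 bp after the nearest transcript start, and at P14 the nearby peaks had enrichments of 2.99 and 2.97 with -log10 q of 5.62 and 5.76. A second H3K4me3 site at the gene, chr2:38711582-38712730 in P7 replicate 1, had enrichments of 2.77 and 2.55 at P7, with -log10 q of 9.93 and 5.87, and of 3.39 and 3.06 at P14, with -log10 q of 8.05 and 6.28. At Hsd17b3 the P7 peaks chr13:64088342-64089169 and chr13:64088747-64089335 had enrichments of 4.42 and 4.31 with -log10 q of 7.26 and 5.25, and summits 184 and 200 bp after a start. These are also the genes, with Star, that had counts in sorted WT cells.

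The arginine marks, written by the PRMT family to which PRMT1 belongs as the main writer of H4R3me2a, marked 0 or 1 of the 10 genes at P7, near the share of all coding genes. H3R2me2a, H3R8me2a and H4R3me1 marked 0 of the 10, against 11.0%, 9.71% and 10.8% of coding genes. H4R3me2a marked 1 of the 10, Hsd17b3, against 15.3%, and H4R3me2s marked 1, Ren1, against 17.8%. Within 1000 bp both marks counted 0 of the 10. At Hsd17b3, replicates 1 and 2 held H4R3me2a summits at chr13:64065761 and chr13:64065924, -2628 and -2791 bp relative to the nearest start. Replicate 2 also held summits at -1441 and 1724 bp. The 5′ end of the gene is at chr13:64089230. At P14 H3R2me2a marked 4, Cyp11a1, Hsd17b3, Lhcgr and Nr5a1, against 51.3%, and H4R3me2a marked 3, Cyp11a1, Hsd17b3 and Lhcgr, against 49.0%. The summits of these marks at Hsd17b3 at P14 lay from chr13:64064664 to chr13:64065993, also far from the 5′ end. H4R3me2s marked 1, Lhcgr, against 34.2%, and H3R8me2a and H4R3me1 marked 0, against 33.0% and 29.9%. With peaks of q at most 0.01, none of the 5 arginine marks marked any of the 10 genes at P7, and at P14 H3R2me2a marked 1 and the other 4 marked 0. At that cut each mark was at 104 to 342 of the 21951 coding genes at P7. At P14 it was 6204 for H3R2me2a and 1438 to 4259 for the other 4. The 3 genes with H4R3me2a at P14 became 2, 1 and 0 without replicate 1, 2 and 3, where 8472, 7557 and 7769 coding genes were marked. With 1 list left out the counts of all 5 marks in WT ran from 0 to 3 at P7 and from 0 to 5 at P14. The coding genes marked then ran from 1711 to 7397 and from 4423 to 13504 of 21951. Where a mark had 2 lists, a summit in the 1 list left sufficed. In dKO at P7, H4R3me2s marked 0 of the 10, against 9.82% of coding genes. The 2 H4R3me2s peaks at Ren1 in WT had -log10 q of 0.186 and 0.288 with summits at -870 and -2711 bp relative to the nearest start.

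Of the 10 genes Lhcgr differed most between the ages, a feature singled out after its values were seen. At P14 11 of the 16 WT lists, over all marks, held a summit within 3000 bp of one of its starts, and at P7 1 of 15, while the median coding gene had 8 and 4. Without the H4R3me2s lists of either age, an alternative chosen after seeing the data, it was 9 of 13 at P14 and 0 of 13 at P7. At P14 10 lists, 1 or 2 of each mark, placed that summit 197 to 373 bp after the 5′ end of the gene, and at P7 none did. The P14 H3R2me2a peaks there, chr17:88791562-88791857 and chr17:88791546-88791900, had enrichments of 3.91 and 4.15 with -log10 q of 2.94 and 3.76. Hsd3b6 had a promoter summit in no list at either age.

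**Figure D4:**
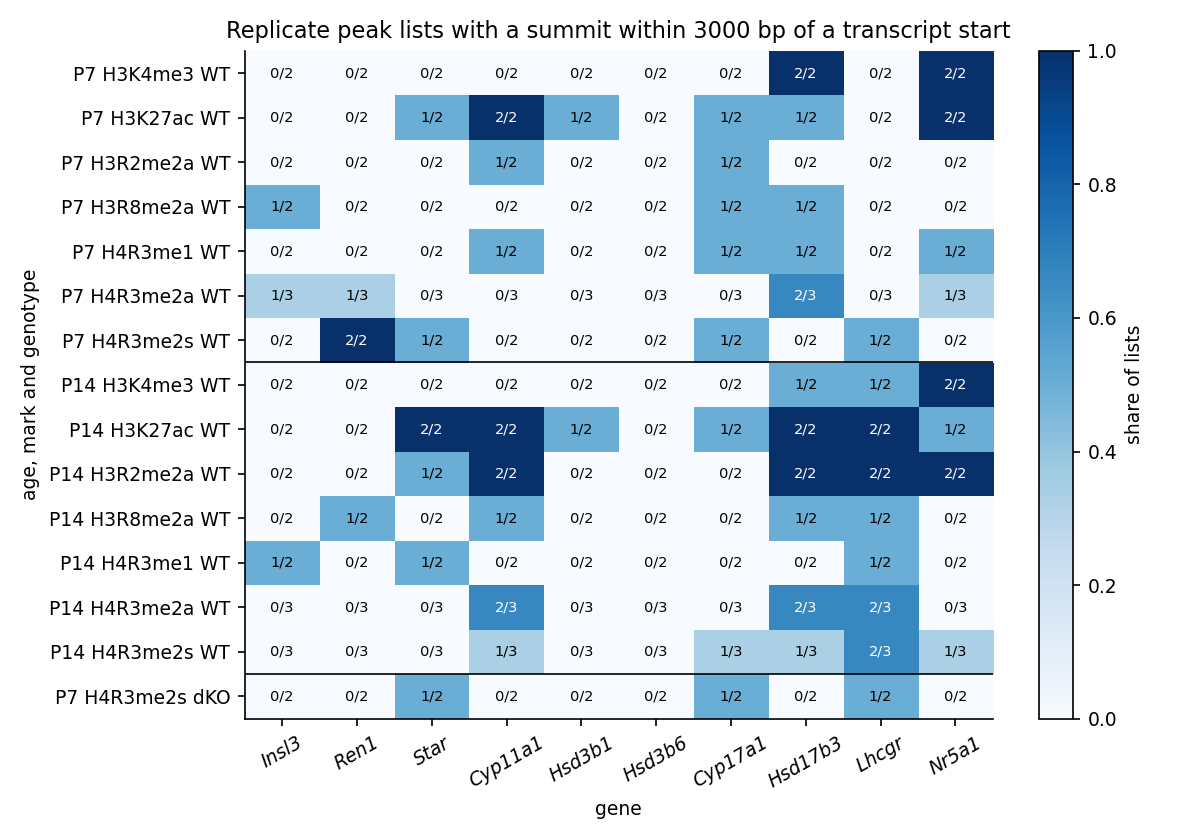
Number of replicate peak lists with a summit within 3000 bp of a transcript start, out of the lists of that age, mark and genotype, for each of the 10 genes, shaded by the share of lists. H3K4me3 summits are in 2 of 2 lists at Nr5a1 at both ages and at Hsd17b3 at P7. At P14 they are in 1 of 2 lists at Hsd17b3 and at Lhcgr. Lhcgr is marked in most rows at P14 and almost none at P7, and Insl3, Ren1 and Hsd3b6 have no H3K4me3 or H3K27ac peak.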

How the data were processed

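Groups were taken from the sample labels. Per the labels and the methods, the authors trimmed reads with fastp 0.23.2, aligned them to mm10 and made 1 RSEM table per RNA library; the deposited expected counts and TPM values were used, with the effective lengths beside them. The authors called peaks in each CUT&Tag library with MACS2 2.1.0, and the deposited lists give fold enrichment and -log10 p and q values; the control library is not given in the sources used here. Gene names came from GENCODE vM21, which matched 55141 of 55401 identifiers.

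Expected counts were rounded and fitted in edgeR 4.0.16 (R 4.3.3; filterByExpr, TMM scaling, quasi-likelihood test, Benjamini-Hochberg adjustment over all genes tested), separately for bulk (16554 genes) and Smart-seq2 (16443 genes). A call needed an adjusted p under 0.05 and a 2-fold change. The fit was tested on simulated data. The methods call the replicates biological but, like the labels, do not say which animals they came from, so p-values measure the spread between these samples, and intervals and floors cover counting error only. The 10 genes and the lists were chosen with earlier results of these data known. From each list the called genes were named, at most the 4 largest with 50 counts on average, otherwise the 2 most abundant, with the 10 largest falls and 5 most alike genes. Some genes that this rule names are not reported here. DESeq2 1.42.0, other size factors, no filter, a replicate block, other peak rules and leaving out each replicate were the alternatives. Promoter sequences were those of RefSeq.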

Additional observations from a re-analysis of the deposited data

Results flagged for a closer look

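Insl3 and Hsd3b1 were lower in dKO in whole testis and higher in dKO in sorted cells, with no overlap between genotypes in either. Of all genes tested in bulk, 19.9% had all 3 dKO libraries below WT. In sorted cells the separation rests on 2 libraries a genotype, and the share of all genes so separated was not counted. The sorted dKO libraries also held counts at more genes, 21404 and 20194 against 17106 and 15587 in WT. In whole testis the dKO libraries of Insl3 lay at 3.94% of the WT mean, and in sorted cells its mean was 0.426 CPM in dKO against 0 in WT. Hsd3b1 was at 82.3% of WT in whole testis, and at 3.19 CPM in dKO against 0 in WT in sorted cells. The difference between the assays was not tested.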

How the results depend on the processing

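The whole-testis contrast chose the 10 genes, so nothing is read from how their calls held. Among the 90 alternative log2 fold changes of the 9 fitted genes the largest move was that of Ren1, from -5.60 to -6.33 without dKO replicate 2. Without the filter on low counts 1777 genes were called higher against 881. The wider pathway lists had 16 to 21 lower calls when 1 replicate was left out, and 0 to 2 higher calls. The replicate numbers did not pair the samples (correlations of same-numbered bulk libraries of 0.0825, -0.2207 and -0.1186); with the replicate block 259 genes were called lower, 691 higher, and of the wider lists 18 lower and 1 higher, and in Smart-seq2 the block gave 0 calls.

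In Smart-seq2 DESeq2 called 3498 genes and 1 of the 10. With 1 library left out edgeR called 0 to 7436 genes and 0 to 3 of the 10. The Smart-seq2 log2 fold change of Nr5a1 ran from -0.62 to 0.32 with 1 library left out, changing sign without WT replicate 2, against -0.25; that of Star ran from 0.01 to 4.47, against 0.93, and that of Hsd17b3 from 1.66 to 8.15, against 2.63. Members with a promoter H3K27ac peak were 0 at P7 and 2 at P14 at q of at most 0.01, 1 and 2 within 1000 bp, and 3 to 5 and 4 to 7 with 1 list left out, and H3K4me3 gave 1 to 3 at P14. Of 21951 coding genes, H3K27ac marked 2293 and 8753, 6034 and 9915, and 8324 to 8974 and 12129 to 12332 under these settings. H3K4me3 marked 14135 to 14422 at P14 with 1 list left out. The cause was not tested. With 2 libraries a group and 0 to 97 counts, Smart-seq2 gives little precision for most of the 10 genes.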
